A study of Mus musculus with 23 samples.

Results

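The tripartite motif (Trim) genes encode a large family of proteins. Most have a RING finger, 1 or 2 B-boxes and a coiled coil, followed by a C-terminal domain that differs between members. Some, such as Trim44, lack the RING finger. The RING finger binds an E2 enzyme that carries ubiquitin. Most Trim proteins thus act as ubiquitin ligases that mark chosen substrates for the proteasome or for other fates. Several members are known from neurons, where they act on the cytoskeleton, the synapse and axon growth, and many others restrict viruses or tune the interferon response. UBB+1 is a frameshifted ubiquitin that accumulates in neurons in Alzheimer's disease and inhibits the proteasome. The ligases that act before the proteasome were therefore examined here in mice that express UBB+1 in brain neurons.

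Members were all probe sets of the Affymetrix MOE430A and MOE430B arrays that the array annotation assigns to 1 gene only, with a symbol made of Trim and a number. The rule gave 111 of 45136 probe sets (64 of MOE430A, 47 of MOE430B), and these represented 58 genes. Of the 58 genes, 24 were on MOE430A only, 19 on MOE430B only and 15 on both. RefSeq lists 68 protein-coding genes with such a symbol in the mouse, and Trim30b, Trim30c, Trim34b, Trim38, Trim43b, Trim43c, Trim50, Trim52, Trim55 and Trim58 had no probe set of their own. A further 4 probe sets on MOE430A and 1 on MOE430B name a Trim gene together with another gene and were not used.

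CA3 tissue was laser-cut from the hippocampus of UBB+1 tg mice and of their non-transgenic (wild-type) littermates at 18 months of age. The tg mice were heterozygous, all of 1 line on a C57BL/6J background, so that line stands for the transgene. The CaMKIIα promoter drives human UBB+1 in postnatal brain neurons, most strongly in the forebrain but also in brainstem nuclei. MOE430A held 6 UBB+1 tg and 5 wild-type mice, and MOE430B held the same animals and 1 further wild-type mouse, so that both arrays measured RNA of the same mice. The animals are called tg270, tg271, tg273, tg274, tg276 and tg277 and wt287, wt289, wt290, wt291, wt321 and, on MOE430B only, wt331, and values are given in this order. Values are log2 intensities after robust multi-array averaging (RMA), each difference is UBB+1 tg minus wild type, and no level is compared between probe sets.

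The animals fell into 3 array sets by overall similarity, and these cut across the genotypes. Mice tg271, wt287 and wt290 made up a low set, tg270 and wt289 a high set, and all other mice a middle set. The names refer to a measure of how short the amplified RNA was, the log2 difference between the control probe sets at the 3′ and the 5′ end of β-actin and Gapdh, which on MOE430A was 2.65 to 3.43 in the low set, 4.44 to 4.62 in the middle set and 6.05 to 6.10 in the high set. CA3 was represented by Bok, Nectin3, Iyd and Coch on MOE430A, 3 of which were at or above the array median. On MOE430B it was represented by Grik4, which was above the array median, and Nectin3, which was below it. For each of the 11 lists of cell type markers measured on MOE430A, the summed level overlapped between the genotypes, for example 14.16 to 14.34 in tg and 13.85 to 14.21 in wild-type mice for neurons and 10.81 to 11.39 in tg and 10.66 to 11.61 in wild-type mice for microglia. Such overlap says little, since only 0.234% of all probe sets on MOE430A had no overlap between the genotypes. Single markers differed more, though none passed a false discovery rate of 10%. Sst was at -0.82 (SE 0.44) on MOE430A, where 4 of 7 interneuron markers were on the higher side. Ttr of the choroid plexus was at -1.44 (SE 0.95) on MOE430B, where 1 of 2 such markers was on the higher side, and at -0.14 (SE 0.28) on MOE430A. Because the tissue was measured in bulk, fewer cells of a type and less RNA per cell cannot be told apart.

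No Trim gene passed the test between UBB+1 tg and wild-type CA3. In limma with the Benjamini-Hochberg adjustment over all probe sets of an array, 0 of 64 Trim probe sets on MOE430A and 0 of 47 on MOE430B passed a false discovery rate of 10%, and the adjusted p was 0.984 or more on MOE430A and 1.00 on MOE430B. The background was the same, since the share of all probe sets that passed was 0% of 22625 on MOE430A and 0% of 22511 on MOE430B. Log2 differences of Trim probe sets ranged from -0.33 to 0.64 on MOE430A and from -0.19 to 0.40 on MOE430B. The 95% interval of the difference reached 0.26 on the log2 scale to either side at the median Trim probe set of MOE430A and 0.24 on MOE430B, and lay between -1 and 1 for 61 of 64 and 46 of 47 probe sets.

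At an unadjusted p under 0.05 in limma, 2 Trim probe sets were on the higher side in UBB+1 tg mice on MOE430A, for Trim2 and Trim33, and 2 on the lower side, for Trim27 and Trim44. These are 3.12% of the Trim probe sets in each direction, set against 1.91% of all probe sets on the higher side and 1.57% on the lower side. On MOE430B the count was 0 in both directions, against 1.52% and 1.53% of all probe sets. In no Trim probe set did all tg mice lie above or all below the wild-type mice, a pattern seen in 0.234% of all probe sets on MOE430A and 0.142% on MOE430B. These counts are small and close to the background.

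The family as a whole was also centred close to 0. On MOE430A 37 of 64 Trim probe sets (57.8%) had a positive difference, with a median of 0.03, while 51.7% of all probe sets did, with a median of 0.00. On MOE430B 16 of 47 were positive, with a median of -0.04, while 47.6% of all probe sets were, with a median of -0.01. Hence the small shift had opposite signs on the 2 arrays, although 11 of the mice were the same.

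**Figure D1:**
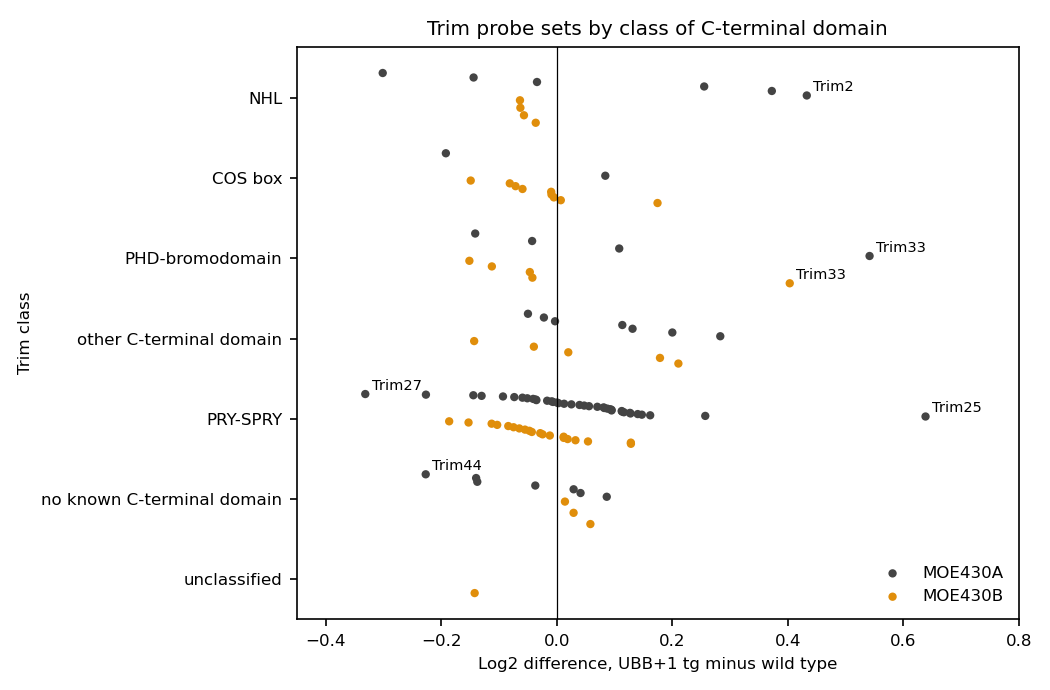
Log2 difference, UBB+1 tg minus wild type (x axis), of each of the 111 Trim probe sets, in rows by class of C-terminal domain, with MOE430A in grey and MOE430B in orange and the vertical offset within a row only for legibility. Most points lie close to 0 in every class, and the labelled points are those with an unadjusted p under 0.05 or a difference beyond 0.4.

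The NHL class, whose C-terminal repeats form a propeller that binds substrates and RNA, holds the members best known from neurons. Trim2 (chromosome 3, 84160439 to 84308352, GRCm38.p6) encodes a ligase of neurofilament light, and mice that lack it develop ataxia with axon degeneration. The study listed Trim2 among its CA3 genes on these same samples, on the higher side in UBB+1 tg mice, so its values here are not independent evidence. Probe set 1417028_a_at gave log2 intensities of 9.29, 9.16, 9.20, 9.18, 9.51 and 9.77 in UBB+1 tg mice, against 8.55, 9.24, 8.45, 9.14 and 9.22 in wild-type mice. The genotypes overlapped: wt287 and wt290, both of the low array set, lay far below all other animals, wt291 lay just below the lowest tg mouse, and wt289 and wt321 were in the lower part of the tg range. The difference was 0.43 (SE 0.18, 95% interval 0.04 to 0.82), with an unadjusted p of 0.0320 and an adjusted p of 0.984 in limma.

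Probe set 1417027_at of Trim2 gave 11.30, 10.79, 11.06, 10.35, 10.88 and 10.84 in UBB+1 tg mice, against 10.24, 11.21, 10.19, 10.19 and 10.66 in wild-type mice. Here tg274 fell among the wild-type values and wt289 among the highest tg values, and the difference was 0.37 (SE 0.21, adjusted p = 0.984 in limma). The 2 other probe sets on MOE430A were below the array median and more scattered. Probe set 1417029_a_at, at 4.52, 5.21, 4.81, 6.29, 6.27 and 5.49 in UBB+1 tg mice and 5.21, 4.86, 4.91, 7.60 and 6.09 in wild-type mice, differed by -0.30 (SE 0.51), with wt291 above all other animals. Probe set 1448551_a_at, at 5.32, 5.49, 6.21, 6.25, 6.00 and 6.15 in UBB+1 tg mice and 4.91, 5.43, 5.43, 5.78 and 6.70 in wild-type mice, differed by 0.26 (SE 0.29), and by 0.07 without wt287, 0.52 without wt321 and 0.02 with a block for the array set.

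On MOE430B both Trim2 probe sets were close to 0 in the same mice. Probe set 1459860_x_at averaged 11.20 ± 0.19 in UBB+1 tg mice and 11.24 ± 0.24 in wild-type mice (SD, n = 6 each), a difference of -0.04 (95% interval -0.29 to 0.22). Probe set 1441487_at ranged from 5.23 to 5.64 in UBB+1 tg mice and from 5.46 to 5.67 in wild-type mice, with a difference of -0.06 (95% interval -0.24 to 0.11). Thus 3 of 6 probe sets of Trim2 were on the higher and 3 on the lower side, and the positive ones were all on MOE430A. Where along the transcript each probe set lies was not analysed here.

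The difference of Trim2 probe set 1417028_a_at was also taken within each array set, where few mice remain. On MOE430A the low set holds 1 tg and 2 wild-type mice, the middle set 4 and 2, and the high set 1 and 1. Values within the low and high sets thus rest on single tg mice, and a dependence on the array set was not tested. The difference of this probe set was 0.66 within the low set, 0.23 within the middle set and 0.05 within the high set. Without wt290 the difference was 0.32 and without wt287 it was 0.34. The mRNA of neurofilament light (Nefl) differed by 0.27 (SE 0.20) on MOE430A and by 0.31 (SE 0.16) on MOE430B, with adjusted p of 0.984 and 1.00 in limma. With a block for the array set its differences were 0.11 and 0.23.

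The other NHL genes did not pass the test either. Trim3, which targets a scaffold protein of the postsynaptic density, had 9.51, 9.88, 9.95, 9.48, 9.34 and 9.09 in UBB+1 tg mice, against 10.02, 9.92, 10.25, 9.06 and 9.17 in wild-type mice, a difference of -0.14 (SE 0.24), which was 0.03 with a block for the array set. The wild-type values enclosed those of the tg mice. Trim32, a ligase of muscle and neural progenitors, differed by -0.03 (SE 0.32), and its 2 highest animals were tg270 at 11.01 and wt289 at 11.02, the mice of the high array set, while all others were at 9.44 to 10.43. With the block its difference was 0.14. Trim71, which represses mRNAs in stem cells, was at -0.06 on both its probe sets.

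Among the genes with a PHD finger and bromodomain, which read histone marks and act in transcription, Trim33 (chromosome 3, 103279293 to 103358770) had the 2 highest differences. Trim33, also called TIF1γ, is a ligase and cofactor of Smad signalling. Probe set 1426954_at gave 9.82, 9.13, 9.59, 9.44, 9.38 and 9.86 in UBB+1 tg mice, against 8.30, 9.64, 8.52, 9.37 and 9.13 in wild-type mice. As for Trim2, wt287 and wt290 were the lowest animals and the other wild-type mice lay within the tg range. The difference was 0.54 (SE 0.24, 95% interval 0.02 to 1.07), with an unadjusted p of 0.0440 and an adjusted p of 0.984 in limma. It was 0.71 within the low array set, 0.32 within the middle set and 0.17 within the high set, where the low and high sets each hold a single tg mouse. The difference was 0.37 without wt287 and 0.42 without wt290.

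Trim33 was measured on MOE430B as well. Probe set 1455189_at gave 7.44, 6.34, 6.70, 8.12, 7.73 and 8.49 in UBB+1 tg mice, against 6.70, 7.10, 6.85, 7.20, 7.43 and 7.12 in wild-type mice. Mice tg274, tg276 and tg277 lay well above all wild-type mice and tg270 just above them, while tg271 was the lowest animal. The difference was 0.40 (SE 0.32, adjusted p = 1.00 in limma), with the opposite sign of -0.44 within the low array set, whose only tg mouse is tg271. The dim probe set 1459264_at differed by -0.05 (SE 0.08).

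The other genes of this class were close to 0. Trim28, also called KAP1, the corepressor of KRAB zinc finger proteins that silences retroelements, had differences of -0.14 (95% interval -0.54 to 0.26) on MOE430A and -0.04 (95% interval -0.32 to 0.24) on MOE430B. Trim24, a cofactor of the retinoic acid receptor, was at 0.11, -0.04 and -0.15, and Trim66 was at -0.11. Of the partners of KAP1 and of the TIF1 proteins, such as the heterochromatin proteins, Setdb1 and the Smads, 5 of 8 measured on MOE430A were on the higher side, with a median difference of 0.05, and none passed a false discovery rate of 10% or an unadjusted p under 0.05 in limma.

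**Figure D2:**
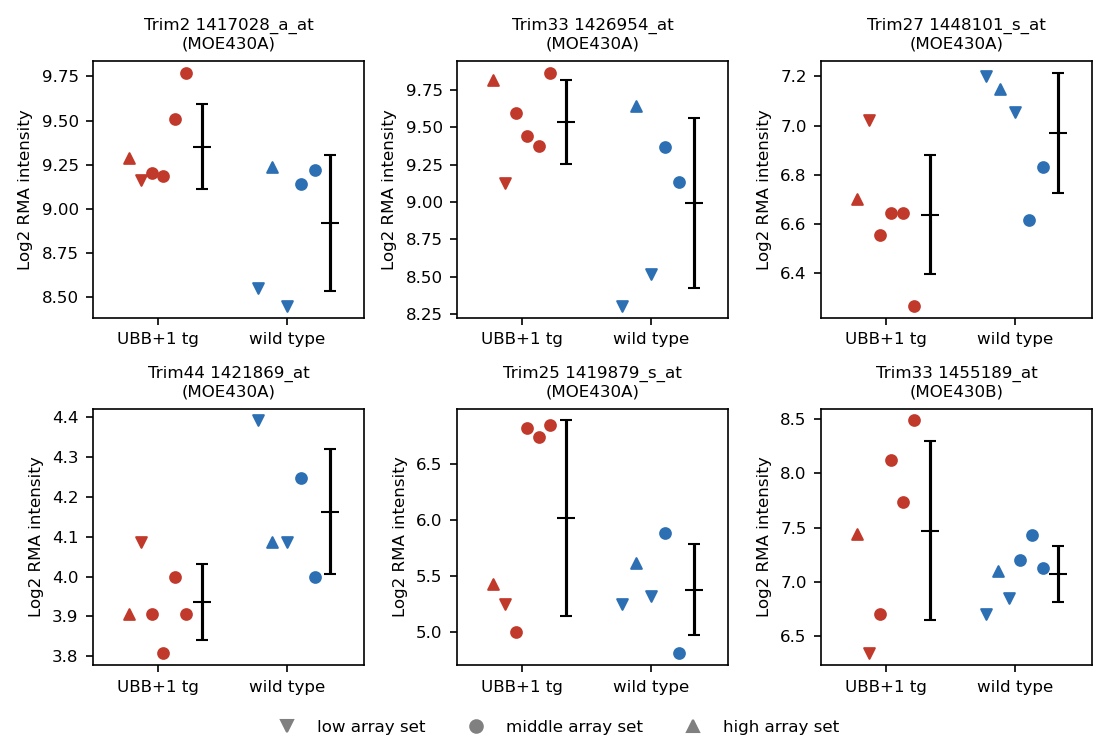
Log2 RMA intensity (y axis) of 6 Trim probe sets in each mouse, UBB+1 tg in red on the left and wild type in blue on the right, with the array set given by the marker and the bar showing the mean ± SD. In Trim2 1417028_a_at and Trim33 1426954_at the 2 wild-type mice of the low array set lie below all others, and in Trim25 1419879_s_at mice tg274, tg276 and tg277, at 6.82, 6.74 and 6.85, stand apart.

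In the COS box class, whose members bind microtubules, no neuronal gene passed the test between the genotypes. Trim9, a brain ligase that binds SNAP25 and the netrin receptor DCC, had 4 probe sets on MOE430B with differences of -0.08, 0.01, -0.01 and 0.17 and standard errors of 0.12 to 0.32, and the last of these, 1454886_x_at, was at 0.21 with a block for the array set (adjusted p = 0.900 in limma). Trim46, which bundles microtubules at the axon initial segment, had 8.52, 8.48, 7.92, 8.06, 8.10 and 7.98 in UBB+1 tg mice, against 8.29, 8.37, 8.49, 7.64 and 7.69 in wild-type mice. The genotypes overlapped, and the lowest animals were wt291 and wt321 of the middle array set. The difference of Trim46 was 0.08 (SE 0.19), and 0.24 with the block, where it had an unadjusted p of 0.0112 and an adjusted p of 0.666 in limma. The block was formed from the same values, so this p is no independent support. Trim36 was at -0.06 and -0.01 and Trim67 at -0.01.

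The smallest p of the COS box class belonged to Trim54, a muscle protein whose probe set 1419440_at was below the array median. It ranged from 4.81 to 5.09 in UBB+1 tg mice, against 5.46, 5.04, 5.04, 5.0 and 5.13 in wild-type mice. All wild-type mice lay at or above 5.0, and wt287 stood above all other animals. The difference was -0.19 (SE 0.094, adjusted p = 0.984 in limma), and -0.11 without wt287. Of the neuronal partners and substrates of Trim proteins, among them Snap25, Dcc and Ank3, 4 of 11 measured were on the higher side on MOE430A and 6 of 9 on MOE430B, with 0 past an unadjusted p under 0.05 in limma.

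The PRY-SPRY class is the largest, with 38 probe sets on MOE430A and 20 on MOE430B, and its C-terminal domain recognises substrates that include viral proteins and intracellular antibody. Of these, 24 of 38 had a positive difference on MOE430A, with a median of 0.04, and 7 of 20 on MOE430B, with a median of -0.04. Trim27 (chromosome 13, 21179450 to 21194723), a nuclear and endosomal ligase, had the most negative difference of all members. Its probe set 1448101_s_at gave 6.70, 7.02, 6.55, 6.64, 6.64 and 6.27 in UBB+1 tg mice, against 7.20, 7.15, 7.06, 6.61 and 6.83 in wild-type mice. Of the wild-type mice, 3 lay above all tg mice, and wt291 and wt321 were within the tg range. The difference was -0.33 (SE 0.14, 95% interval -0.64 to -0.02), with an unadjusted p of 0.0379 and an adjusted p of 0.984 in limma.

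The other probe sets of Trim27 did not share this difference. They were at 0.15, 0.09 and -0.04 on MOE430A and at -0.06 and -0.06 on MOE430B. The array annotation gives all 6 to Trim27 alone, although the ending _s_at marks probes that match more than 1 transcript.

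The highest difference of all members was that of Trim25, the ligase that activates the RNA sensor RIG-I, which is described here after its values were seen. Probe set 1419879_s_at gave 5.43, 5.25, 5.0, 6.82, 6.74 and 6.85 in UBB+1 tg mice, against 5.25, 5.61, 5.32, 5.88 and 4.81 in wild-type mice. Mice tg274, tg276 and tg277, all of the middle array set, lay above every other animal, and the other tg mice lay within the wild-type range. The difference was 0.64 (SE 0.39, 95% interval -0.21 to 1.48, adjusted p = 0.984 in limma). The 2 other Trim25 probe sets, like this one below the array median, were at 0.26 and -0.04. In the first of them, 1425974_a_at, the same mice were again the highest, at 5.70, 5.61 and 5.64, while the other tg mice were at 4.39 to 4.95 and the wild-type mice at 4.70 to 5.09. These 3 tg mice were also the highest for Trim33 probe set 1455189_at on MOE430B.

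**Figure D3:**
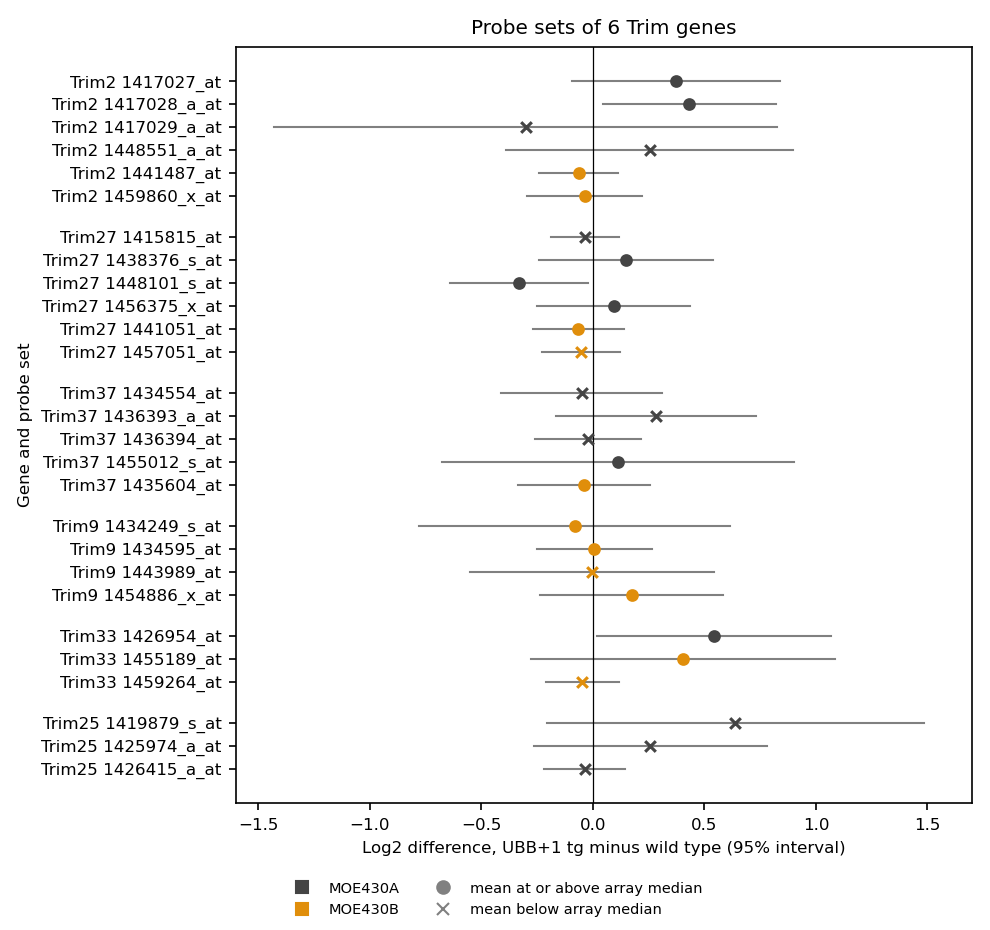
Log2 difference, UBB+1 tg minus wild type (x axis), with its 95% interval, for each probe set of Trim2, Trim27, Trim37, Trim9, Trim33 and Trim25, with MOE430A in grey and MOE430B in orange and crosses for probe sets below the array median. Probe sets of 1 gene lie on both sides of 0 in each of the 6 genes, and only those of Trim2, Trim27 and Trim33 with an unadjusted p under 0.05 have an interval that leaves out 0.

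Disagreement between probe sets of 1 gene was common. Of the 31 genes with more than 1 probe set, 20 had probe sets of both signs. Mixed signs are frequent where differences lie close to 0. The share over all genes of the arrays was not computed, so the count does not set Trim genes apart. Trim37, a ligase of centrosome assembly and chromatin, had 5 probe sets at -0.05, 0.28, -0.02, 0.11 and -0.04. Trim35 was at -0.14 on MOE430A and at -0.19 and 0.13 on MOE430B. By contrast, all 3 probe sets of Trim62, a ligase that acts in innate signalling, were on the higher side at 0.16, 0.09 and 0.09. At or above the array median were 47 of the 111 probe sets, for 32 genes, and these gave 16 of 25 positive differences on MOE430A and 8 of 22 on MOE430B.

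Interferon-related Trim genes lie in clusters in the mouse genome, and the largest measured here is on chromosome 7 (104218795 to 104507853, GRCm38.p6). It holds Trim6, Trim34a, Trim5, Trim12a, Trim12c, Trim30a and Trim30d, of which Trim5 is named for the primate gene that blocks retroviral capsids. Of their 13 probe sets 6 were on the higher and 7 on the lower side, between -0.23 and 0.13, and 1 was at or above the array median. A second cluster on chromosome 17 (36837123 to 36910217) holds Trim26, Trim15, Trim10, Trim40 and Trim31, and its 6 probe sets were at 0.00 to 0.13, none with an unadjusted p under 0.05.

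The promoters of these genes are shown because some carry a match to the core of an element through which interferon acts. RefSeq promoters on GRCm38.p6 were found for 47 of the 58 genes, and the 250 bases before the start were searched for the core of the interferon-stimulated response element, GAAANNGAAA, on both strands. It was present in 5 of the 47 genes (10.6%), Trim5, Trim12c, Trim26, Trim30a and Trim30d, and in 3.46% of all 27025 genes of the table. Counted by promoter window, 8.2% of the 61 Trim windows and 2.98% of all windows had a match. A second window of Trim30a had none. A match describes the letters only. The window of Trim12a closely resembles those of Trim5 and Trim12c but ends before the place of their match. Its lack of a match thus depends on the annotated start. The stretches are given on the strand of the gene with the match in capitals, which here reads TTTCNNTTTC, and in Trim26 the capitals cover 2 overlapping matches.
Trim30a, chr7:104465195-104465254, minus strand: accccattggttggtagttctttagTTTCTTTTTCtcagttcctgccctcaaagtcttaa
Trim30d, chr7:104507856-104507915, minus strand: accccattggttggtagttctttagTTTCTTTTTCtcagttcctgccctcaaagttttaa
Trim5, chr7:104288121-104288180, minus strand: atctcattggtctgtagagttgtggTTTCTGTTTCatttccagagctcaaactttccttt
Trim12c, chr7:104353350-104353409, minus strand: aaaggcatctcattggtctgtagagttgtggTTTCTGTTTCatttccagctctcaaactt
Trim26, chr17:36836961-36837020, plus strand: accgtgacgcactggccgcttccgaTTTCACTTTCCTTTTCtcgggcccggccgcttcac

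The upstream windows of Trim30a and Trim30d were identical at 226 of 245 aligned bases (92.2%) and those of Trim5 and Trim12c at 219 of 230 (95.2%), which marks them as close copies. The share of Trim genes with a match thus counts close copies as separate genes. Probe sets of such copies may bind transcripts of each other, so their values are uncertain as to the gene. The 5 genes with a match had differences close to 0. Trim30a, an inhibitor of Toll-like receptor signalling in the mouse, was at -0.06 (SE 0.20) and 0.04 (SE 0.08), and Trim30d at 0.05 and -0.08. Trim5 was at -0.01, Trim12c at -0.05 and 0.01, and Trim26 at 0.00 and 0.13. Trim12a, whose window had no match, was at -0.13 and -0.23.

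Genes around this pathway were likewise without a difference past the false discovery rate of 10%. Of the interferon-induced genes, such as Ifit1, Ifit3 and Mx1, 11 of 20 measured on MOE430A were on the higher side, with a median of 0.01, and 1 of 4 on MOE430B, with a median of -0.05, and none had an unadjusted p under 0.05 in limma. Of the innate sensing genes 5 of 7 were on the higher side on MOE430A, with a median of 0.04, and 2 of 2 on MOE430B. Among them only Tlr3, a receptor of double-stranded RNA, had an unadjusted p under 0.05, and its probe set was below the array median. Tlr3 averaged 6.05 ± 0.28 in UBB+1 tg mice and 5.72 ± 0.15 in wild-type mice on MOE430A. The difference was 0.33 (SE 0.13, unadjusted p = 0.0302, adjusted p = 0.984 in limma).

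The remaining classes were small. Trim44 (chromosome 2, 102300119 to 102400900), which has no RING finger but a zinc finger of the kind found in ubiquitin proteases, had the smallest p of all members at probe set 1421869_at. Its linear intensities, deposited in whole numbers, were 15, 17, 15, 14, 16 and 15 in UBB+1 tg mice, against 21, 17, 17, 19 and 16 in wild-type mice, so that single steps of the scale make up much of the difference. On the log2 scale it was -0.23 (SE 0.085), with an unadjusted p of 0.0213 and an adjusted p of 0.984 in limma, and -0.17 without wt287. The bright probe set 1421870_at of Trim44 was at 0.09 (SE 0.11) and that on MOE430B at 0.03.

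Trim59, a membrane-anchored member, had differences of 0.13 on MOE430A, or 0.03 with a block for the array set, and 0.18 (SE 0.12) on MOE430B, where probe set 1431430_s_at ranged from 5.54 to 6.28 in UBB+1 tg mice and from 5.36 to 5.74 in wild-type mice. The top of that range was tg271 alone, and the difference was 0.07 without it. Trim80, which was not assigned to a class, was at 6.32 to 6.57 in UBB+1 tg mice and 6.27 to 6.88 in wild-type mice on MOE430B, a difference of -0.14 (SE 0.091, adjusted p = 1.00 in limma), and -0.08 without wt287. Trim13 of the endoplasmic reticulum membrane was close to 0 (95% interval -0.37 to 0.37), and Trim23, which carries an ARF domain, at 0.20, 0.02 and 0.21, which were 0.13, -0.01 and 0.02 with a block for the array set.

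Proteins with the tripartite motif but another name, and the E2 enzymes that work with RING ligases, completed the picture. Of Mid1, Mid2, Pml, Mefv, Rnf207 and Cmya5, 5 of 6 were on the higher side on MOE430A and 0 of 3 measured on MOE430B. Only Mid2, a microtubule-bound ligase whose probe set was below the array median, had an unadjusted p under 0.05. It averaged 5.72 ± 0.28 in UBB+1 tg mice and 5.40 ± 0.18 in wild-type mice on MOE430A. The difference was 0.32 (SE 0.14, unadjusted p = 0.0407, adjusted p = 0.984 in limma). Of the E2 enzymes 7 of 11 were on the higher side on MOE430A and 5 of 7 on MOE430B, none with an unadjusted p under 0.05. The direction on MOE430A turned with a block for the array set, where 4 of 11 were on the higher side and the median was -0.12, against 0.03 without the block. Ube2n, the E2 enzyme of lysine-63 chains, was at -0.52 (SE 0.34) on MOE430A, or -0.21 with the block, and 0.28 (SE 0.15) on MOE430B.

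The spread of Trim values went more with the 3 array sets than with the genotype. The array set held a median of 36.7% of the variance of a Trim probe set on MOE430A and the genotype 5.82%, and on MOE430B the shares were 35.6% and 4.04%. Over all probe sets the shares were 39.6% and 5.39% on MOE430A and 31.5% and 4.01% on MOE430B. Both mice of the high array set lay above all others in 10 of 64 Trim probe sets on MOE430A (15.6%, against 7.08% of all probe sets) and in 4 of 47 on MOE430B (8.51%, against 2.99%), among them Trim32, Trim44 1421870_at, Trim62 1436806_at and Trim9 1454886_x_at. They lay below all others in 1 Trim probe set on each array, which on MOE430A was Trim28. The array sets were formed from the same values, so these shares are a description. The array set also has more levels than the genotype, which by itself raises its share.

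**Figure D4:**
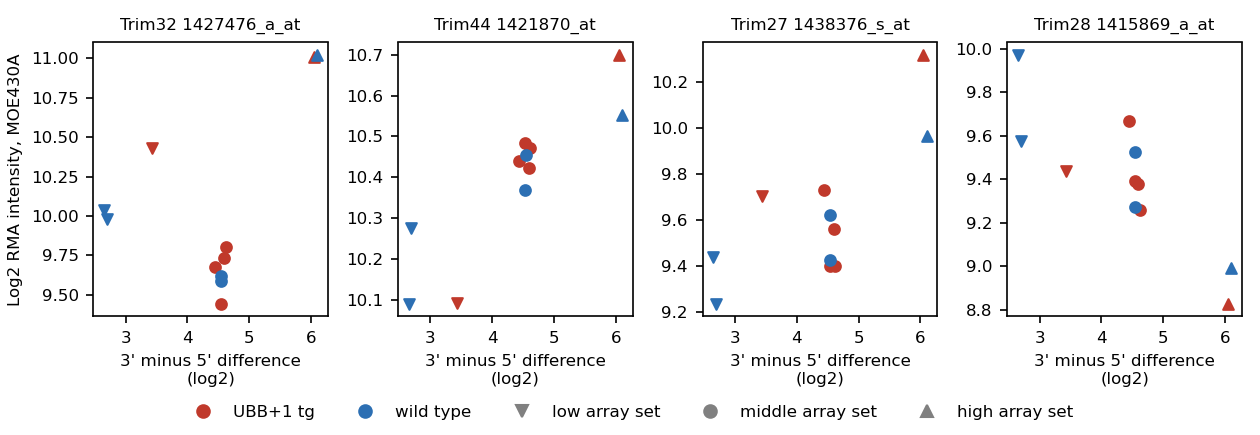
Log2 RMA intensity on MOE430A (y axis) of 4 Trim probe sets in each mouse against the log2 difference between 3′ and 5′ control probe sets (x axis), with UBB+1 tg in red, wild type in blue and the array set given by the marker. For Trim32, Trim44 and Trim27 the tg mouse and the wild-type mouse of the high array set lie together above all others, and for Trim28 below them.

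When limma had the array set as a block, 5 of 64 Trim probe sets (7.81%) had an unadjusted p under 0.05 on the higher side on MOE430A. The share of all probe sets was 3.77%. On the lower side it was 2 Trim probe sets (3.12%), against 3.42% of all probe sets. The 5 were both bright Trim2 probe sets of MOE430A at 0.36 and 0.31, Trim33 at 0.39 (SE 0.12), Trim46 at 0.24 (SE 0.080) and Trim62 at 0.21 (SE 0.086), and the 2 were Trim27 at -0.22 and Trim44 at -0.19. On MOE430B it was 1 on the higher side, Trim9 1454886_x_at at 0.21 (SE 0.085), against 2.38% of all probe sets, and 0 on the lower side, against 2.68%. The adjusted p of these probe sets was 0.658 or more in limma, so that none passed the false discovery rate of 10% in this fit either. The block was formed from the same values, so the unadjusted p-values of this fit are no independent support. Without the block, the shares of all probe sets on MOE430A were 1.91% on the higher side and 1.57% on the lower side.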

How the data were processed

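The authors hybridised RNA from laser-cut, cresyl violet stained CA3 tissue, amplified in 2 rounds, to MOE430A and MOE430B arrays. The deposited values are RMA intensities per probe set (background-corrected, quantile-normalized and summarised by the authors), which for MOE430A are linear and rounded to whole numbers and for MOE430B are log2 values as deposited. The RMA version is not given in the sources used here. The study's main test on single probes could not be run on summarised values, so its second one was used. The study states that RMA with limma at a false discovery rate of 10% bore out its results. Here 0 of 22625 probe sets on MOE430A and 0 of 22511 on MOE430B passed that threshold, and the reason for this contrast was not tested.

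Groups came from the labels. MOE430A intensities were taken to log2, 64 control probe sets per array and probe set 1427508_at were left out, and 22625 and 22511 probe sets were fitted with lmFit and eBayes in limma 3.58.1 (R 4.3.3), two-sided, and p-values were adjusted after Benjamini and Hochberg for each array. The fit was tested on simulated data. Array sets come from complete-linkage clustering into 3 groups. Arrays hold no counts, and the number of mice limits the precision.

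Named members are all Trim2 probe sets, those with an unadjusted p under 0.05, the smallest p in each class and, from other lists, at most 3 genes per list. Further members were picked after their values were seen. The members, classes and lists were chosen with earlier results of these data known. Gene names come from the array annotation, and positions and promoters from RefSeq on GRCm38.p6. The alternatives were a second quantile normalization, median centring, no dim probe sets, no _s_at and _x_at probe sets, raising low values to the 25th percentile of the array, the 3'-5' difference as a covariate, the array set as a block, array weights, another variance model, probe sets averaged per gene, each animal left out, shared animals only and a false discovery rate of 5%. Fits on the middle array set alone and without the high array set were chosen after seeing the data.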

Additional observations from a re-analysis of the deposited data

Results flagged for a closer look

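Of 24 groups of animals examined for the named Trim probe sets, 2 held a mouse far from the rest of its group, and chance alone flags about 1 in 20 groups. For Trim54 probe set 1419440_at on MOE430A, wt287 had a log2 intensity of 5.46 while the other wild-type mice were at 5.0 to 5.13. For Trim59 probe set 1431430_s_at on MOE430B, tg271 had 6.28 while the other tg mice were at 5.54 to 5.71. Both mice belong to the low array set, and the part of the array set in these values was not tested.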

How the results depend on the processing

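No paired analysis was possible because nothing in the labels links a tg mouse to a wild-type mouse. None of the alternatives run brought a Trim probe set past the false discovery rate of 10%. Over all probe sets of MOE430B the count was 1 without dim probe sets, with the 3'-5' covariate, with probe sets averaged per gene and without wt291, and 0 otherwise (0 to 1 when each animal was left out, and 0 to 0 on MOE430A). The Trim counts at an unadjusted p under 0.05 were less stable. On MOE430A the count of 2 on the higher side was 1 with the floor, with averaging per gene and in the middle array set alone, 4 with array weights and 5 with the block of array sets. It was 0 without tg276 or tg277 or wt287 or wt290, 1 without tg270, and 4 without tg271 or wt289. The count of 2 on the lower side was 1 without dim probe sets, without _s_at and _x_at probe sets, with the floor and with the covariate, 0 with averaging and 4 with array weights. It was 0 without wt287, 1 without tg273, tg274, tg276 or tg277 or wt290, and 4 without tg271. On MOE430B the count on the higher side was 1 with the block and with array weights, and 0 to 1 when each animal was left out. On the lower side it was 2 with array weights, in the middle array set alone and without the high array set, and 0 to 1 when each animal was left out. When each animal was left out, the median Trim difference ranged from 0.01 to 0.07 for MOE430A and from -0.06 to -0.02 for MOE430B, and -0.0018 on MOE430B in the middle array set alone. Among the recomputed values of named probe sets 8 changed sign, all for Trim2: 1417029_a_at to 0.0609 with array weights and 0.17 without wt291 (-0.520 to 0.165 when each animal was left out), 1448551_a_at to -0.0891 in the middle array set alone, 1441487_at to 0.0015 in the middle array set alone, and 1459860_x_at to 0.0375 with array weights, 0.12 in the middle array set alone, 0.0038 without tg271 and 0.0454 without wt287 (-0.101 to 0.0454 when each animal was left out). The causes were not tested.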
